A study of Mus musculus with 8 samples.

Results

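The genes described here encode the glycosyltransferases and sulfotransferases that build, extend and cap mucin-type glycans, the sugar chains that cover the mucins of the gut. They were taken by symbol from the deposited count table, as all genes of the Galnt, B3gnt, B3galt, B4galt, B4galnt, Gcnt, Fut, St3gal, St6gal, St6galnac, St8sia and Gal3st families, with Abo and C1galt1. The rule used no measured value and found 82 symbols on 83 lines of the table, of 55418 symbols in all; St6galnac2 stood on a pair of lines, which were summed. Of the 82 members, 71 passed the low-count filter and were tested among 17522 genes. The other 11 (B3gnt4, B3gnt6, Fut1, Fut7, Gal3st3, Gal3st4, Galnt9, Galnt14, Gcnt7, St6galnac1 and St8sia2) had too few reads for a test. The families also hold enzymes that act on glycolipids, N-glycans or proteoglycans.

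Distal colon RNA was sequenced from 8 mice of strain C57BL/6. The animals were 8 to 10 weeks old, and 4 groups held 2 mice each. The groups were NAIL-ΔNFκB mice given dextran sulfate sodium (ΔNFκB DSS), untreated NAIL-ΔNFκB mice, wild-type mice given dextran sulfate sodium (WT DSS) and untreated wild-type mice. Dextran sulfate sodium (DSS) is a polymer that injures the colon epithelium when it is drunk; it was given at 3% for 4 days, and normal water followed for 4 days. NAIL is a long noncoding RNA, and the labels do not say which bases of its gene differ in ΔNFκB mice. Gm16685 is, by general knowledge and not by any label, the NAIL gene of mice. It had 55 and 86 reads in ΔNFκB DSS mice, 3 and 4 in ΔNFκB untreated mice, 57 and 126 in WT DSS mice and 3 and 20 in WT untreated mice, so its counts did not separate the genotypes.

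Libraries held 9229861 to 16935961 counts. Sex was not balanced: Y-linked transcripts summed to 233 to 248 CPM (the normalised read count used throughout, scaled to a common library size) in both ΔNFκB untreated mice and in WT untreated replicate 2, and to at most 0.183 CPM in the other 5 mice. Within ΔNFκB mice, DSS and sex cannot be told apart, since the 4 DSS mice of both genotypes were all female by this measure. Only the WT untreated group held both sexes. The difference between the DSS responses of the genotypes is therefore also confounded with sex in part. Fits with a sex term, given below, therefore take the effect of sex from 1 male and 1 female WT mouse. The tissue was whole distal colon, so fewer cells of a type and less RNA per cell cannot be told apart. The 12 epithelial marker genes, among them Epcam and Krt19, summed to 11700 and 12200 CPM in ΔNFκB DSS mice and 10700 and 11900 in ΔNFκB untreated mice. WT DSS mice had 8970 and 8320 CPM, against 11800 and 14700 in WT untreated mice. Changes are log2 fold changes ± SE of the edgeR quasi-likelihood fit, and a member is said to be called, to have risen or to have fallen when its Benjamini-Hochberg adjusted p was under 0.05.

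As background, a mucin-type glycan starts when a polypeptide GalNAc-transferase (Galnt) places N-acetylgalactosamine on a serine or threonine of the mucin. Core enzymes then add galactose or N-acetylglucosamine, B3gnt and B4galt enzymes lengthen the chain, and fucose, sialic acid, blood group sugars or sulfate cap it. In the colon these chains make up most of the mass of the mucus gel that separates bacteria from the epithelium, and goblet cells make much of them.

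The galactose 3-O-sulfotransferase cluster held the member with the smallest p in both DSS responses, and its promoters are shown for that reason. Gal3st2, Gal3st2b and Gal3st2c, paralogs that sulfate galactose at the third carbon, lie in a row over 156 kb on the plus strand of chromosome 1 (93861306 to 94017147, GRCm38). The windows below are 300 bases each and span the annotated start (RefSeq, GRCm38.p6, plus strand). Capitals mark matches on either strand to a loose κB form, the kind of site that NF-κB binds (3 G, then any 5 bases, then 2 C). They also mark TATAAA, the TATA box.
Gal3st2, chr1:93861094-93861393: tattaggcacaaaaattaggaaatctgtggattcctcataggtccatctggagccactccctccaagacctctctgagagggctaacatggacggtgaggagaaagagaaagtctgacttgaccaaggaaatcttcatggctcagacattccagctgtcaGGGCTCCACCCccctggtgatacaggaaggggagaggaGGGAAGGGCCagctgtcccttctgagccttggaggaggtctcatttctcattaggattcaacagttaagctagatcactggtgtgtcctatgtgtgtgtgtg
Gal3st2b, chr1:93918187-93918486: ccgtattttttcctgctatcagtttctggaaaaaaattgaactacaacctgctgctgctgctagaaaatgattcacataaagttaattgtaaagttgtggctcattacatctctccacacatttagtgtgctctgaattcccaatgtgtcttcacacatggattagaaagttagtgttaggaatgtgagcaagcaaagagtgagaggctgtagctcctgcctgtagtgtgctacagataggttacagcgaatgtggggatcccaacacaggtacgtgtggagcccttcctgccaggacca
Gal3st2c, chr1:93990255-93990554: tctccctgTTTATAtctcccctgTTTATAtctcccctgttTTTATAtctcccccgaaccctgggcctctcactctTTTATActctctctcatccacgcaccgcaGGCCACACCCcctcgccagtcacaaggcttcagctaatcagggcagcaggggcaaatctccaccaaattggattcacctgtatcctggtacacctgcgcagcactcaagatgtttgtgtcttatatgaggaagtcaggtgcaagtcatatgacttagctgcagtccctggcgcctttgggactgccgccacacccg

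The κB form matched at 3 places in the Gal3st2 window, overlapping matches counted each, at 0 in Gal3st2b and at 1 in Gal3st2c, and TATAAA matched at 4 places in Gal3st2c and 0 in the others. Of 32851 RefSeq promoter windows of the same length, 50.8% held the κB form and 13.6% held TATAAA. Among the members, 59 genes with 81 windows were in the promoter table; 50 windows (61.7%) held the κB form and 2 windows (2.47%, Gal3st2c and Gcnt1) held TATAAA. A form of the HNF4 site, CAAAGTNCA, was in 1 member window (B3gnt3), and in 1.41% of all windows. These are matches of letters in a window and not binding sites.

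Gal3st2c fell with DSS in both genotypes, and it fell further in WT mice. Gal3st2c had 10.1 and 9.69 CPM in ΔNFκB DSS mice and 76.1 and 75.2 in ΔNFκB untreated mice. WT DSS mice had 1.93 and 2.20 CPM, against 85.7 and 87.2 in WT untreated mice. No DSS value overlapped an untreated one, and the WT DSS mice were the lowest of the 8. With DSS it fell by 2.93 ± 0.12 in ΔNFκB mice (adjusted p 3.23e-05) and by 5.38 ± 0.14 in WT mice (adjusted p 2.04e-06). The responses differed by 2.45 ± 0.18 (ΔNFκB minus WT, adjusted p 0.00176), and ΔNFκB DSS mice were above WT DSS mice by 2.26 ± 0.15 (adjusted p 0.000536).

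Gal3st2 had 19.1 and 14.6 CPM in ΔNFκB DSS mice and 21.2 and 31.8 in ΔNFκB untreated mice. WT DSS mice had 3.77 and 4.40 CPM, against 30.7 and 43.2 in WT untreated mice. In WT mice it fell with DSS by 3.18 ± 0.28 (adjusted p 0.000233); in ΔNFκB mice its change of -0.65 ± 0.25 did not pass (adjusted p 0.0743). The difference of responses was 2.52 ± 0.38 (adjusted p 0.00852). Gal3st2b had 15.7 and 12.7 CPM in ΔNFκB DSS mice, 20.3 and 26.5 in ΔNFκB untreated mice, 3.77 and 3.85 in WT DSS mice and 25.8 and 34.7 in WT untreated mice, and its responses differed by 2.27 ± 0.31 (adjusted p 0.00733). The fall of Gal3st2b in ΔNFκB mice, 0.72 ± 0.21 (adjusted p 0.0293), lost its call without ΔNFκB untreated replicate 2 or without either ΔNFκB DSS mouse (adjusted p 0.0602 to 0.189), and was -0.29 with a sex term (adjusted p 0.548). The split among the 3 genes is uncertain: 51.4% of the 150-base windows of Gal3st2, 63.1% of those of Gal3st2b and 4.4% of those of Gal3st2c recur in another gene, and their counts were not whole in any library. Their sum does not depend on the split; it was 44.9 and 37.0 CPM in ΔNFκB DSS mice and 118 and 133 in ΔNFκB untreated mice. WT DSS mice had 9.46 and 10.4 CPM, against 142 and 165 in WT untreated mice.

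Gal3st1, which makes sulfated glycolipids, had 17.2 and 19.3 CPM in ΔNFκB DSS mice and 20.2 and 25.5 in ΔNFκB untreated mice. WT DSS mice had 10.6 and 13.5 CPM, against 24.7 and 22.3 in WT untreated mice. It fell with DSS in WT mice by 0.96 ± 0.18 (adjusted p 0.00557), and its -0.33 ± 0.18 in ΔNFκB mice did not pass (adjusted p 0.194). The responses of Gal3st1 did not differ past the test (0.64 ± 0.26, adjusted p 0.118). Gal3st3 and Gal3st4 had at most 0.193 CPM in any library; 99.0% of the exon bases of Gal3st4 lie in exons of other genes, and the part of that overlap in its low count was not tested.

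Taking the members as a whole, falls outnumbered rises with DSS in both genotypes. In ΔNFκB mice 31 of 71 tested members were called, 9 higher and 22 lower, where 35.4% of all tested genes were called (16.2% higher and 19.2% lower). In WT mice 31 of 71 were also called, 8 higher and 23 lower, where 36.0% of all tested genes were called (17.2% higher and 18.8% lower). The members' share called was 43.7% in each genotype, and their median change was -0.26 in ΔNFκB mice and -0.26 in WT mice, beside -0.04 (ΔNFκB) and 0.00 (WT) over all tested genes. Of the members called, 11 were lower in both genotypes and 2 (B4galnt4 and Gcnt4) higher in both, and 0 were called in opposite directions. A further 22 members were called in neither response. The share of all tested genes in each of these classes was not counted, so the classes describe the members only.

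The responses themselves differed in 29 members, with 20 positive differences (ΔNFκB minus WT) and 9 negative ones, or 40.8% of those tested, where 17.7% of all tested genes were called (8.63% positive and 9.07% negative). The median difference was 0.22 for the members and -0.05 for all tested genes. The count of called members was lower without ΔNFκB DSS replicate 2, ΔNFκB untreated replicate 1 or WT DSS replicate 2. Such a fit leaves 1 mouse in a group, and the share of all tested genes called in it was not counted.

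**Figure D1:**
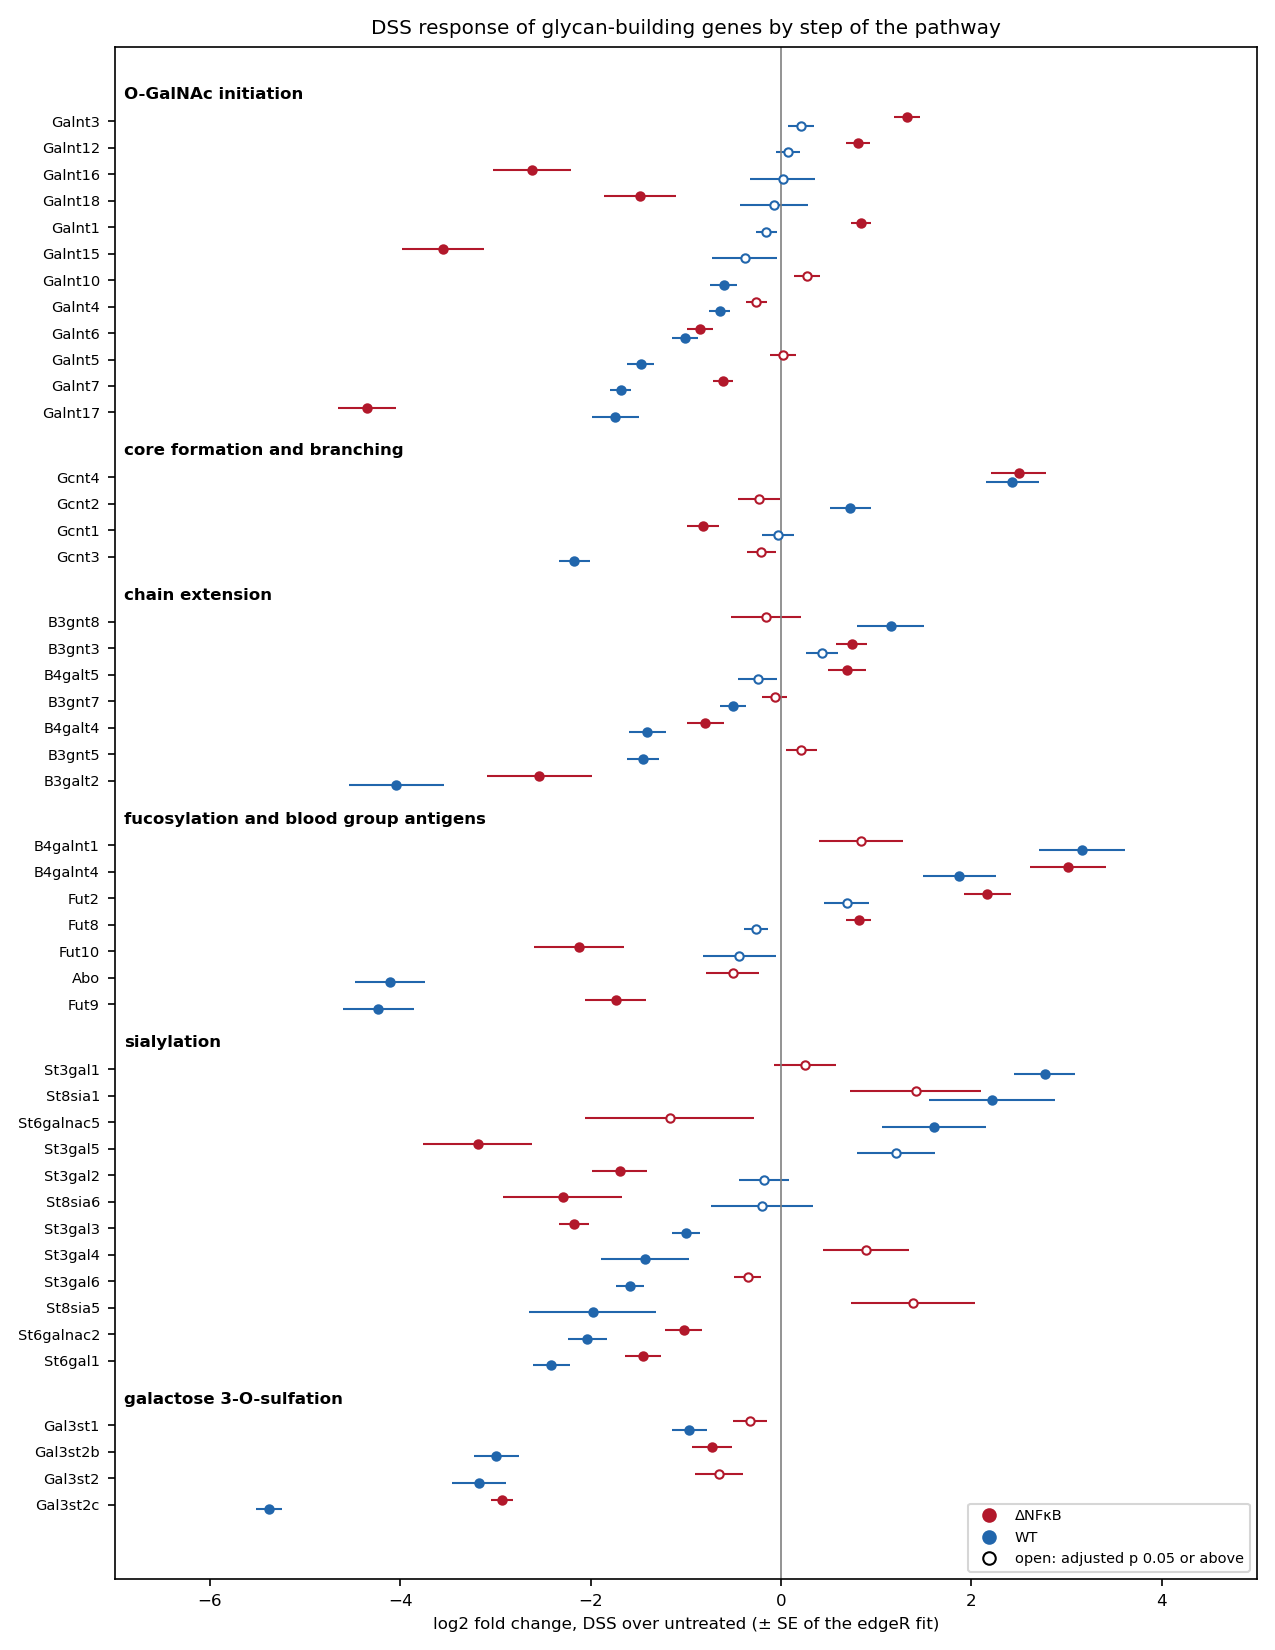
Log2 fold change with DSS (x axis, ± SE of the edgeR fit) of the 46 members called in at least 1 genotype and not limited by low counts, grouped by step of the pathway, with ΔNFκB mice in red above WT mice in blue and open symbols for values that did not pass. Gal3st2c, Abo and Fut9 lie far to the left in WT mice (-5.38, -4.11 and -4.23) and nearer to 0 in ΔNFκB mice (-2.93, -0.51 and -1.74), while Galnt15, Galnt16 and Galnt17 lie far to the left in ΔNFκB mice.

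Among the initiating enzymes, the Galnt family, 15 of 17 members were tested. With DSS, 3 rose and 7 fell in ΔNFκB mice, and 0 rose and 6 fell in WT mice. Galnt7, which prefers peptides that already carry a GalNAc, had 160 and 145 CPM in ΔNFκB DSS mice and 234 and 230 in ΔNFκB untreated mice. WT DSS mice had 86.2 and 82.7 CPM, against 263 and 280 in WT untreated mice. Galnt7 fell in both genotypes, by 0.61 ± 0.10 in ΔNFκB mice (adjusted p 0.00333) and by 1.68 ± 0.11 in WT mice (adjusted p 7.37e-05), and the falls differed by 1.08 ± 0.15 (adjusted p 0.00733). With a sex term the fall in ΔNFκB mice was 0.52 and did not pass (adjusted p 0.0705).

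Galnt5 had 40.3 and 34.6 CPM in ΔNFκB DSS mice, 34.9 and 39.1 in ΔNFκB untreated mice, 15.2 and 17.7 in WT DSS mice and 46.8 and 44.4 in WT untreated mice. Only the WT DSS mice stood apart from the other 6, and the difference of responses was 1.49 ± 0.20 (adjusted p 0.00668). Galnt4, another enzyme with a preference for glycopeptides, had 132 and 131 CPM in ΔNFκB DSS mice and 152 and 163 in ΔNFκB untreated mice. There were 125 and 108 CPM in WT DSS mice, against 183 and 181 in WT untreated mice. It fell with DSS in WT mice by 0.64 ± 0.11 (adjusted p 0.00343); its -0.26 ± 0.11 in ΔNFκB mice did not pass (adjusted p 0.0966), and the responses did not differ past the test (0.38 ± 0.15, adjusted p 0.118).

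Galnt3, best known for glycosylating the hormone FGF23, went the other way. It had 124 and 121 CPM in ΔNFκB DSS mice, 49.6 and 48.2 in ΔNFκB untreated mice, 76.0 and 79.6 in WT DSS mice and 57.8 and 76.7 in WT untreated mice. The ΔNFκB DSS mice were the highest of the 8 and the WT groups overlapped. Galnt3 rose with DSS in ΔNFκB mice by 1.32 ± 0.14 (adjusted p 0.000446), against 0.21 ± 0.14 in WT mice (adjusted p 0.259), a difference of 1.11 ± 0.19 (adjusted p 0.0124; 0.0559 without ΔNFκB DSS replicate 2). Galnt1 rose alike in ΔNFκB mice (0.84 ± 0.11, adjusted p 0.000935), with 161 and 143 CPM in ΔNFκB DSS mice and 84.2 and 85.3 in ΔNFκB untreated mice. In WT DSS mice there were 97.6 and 97.6 CPM, against 103 and 115 in WT untreated mice. Galnt12, an enzyme abundant in the digestive tract, had 64.3 and 59.7 CPM in ΔNFκB DSS mice, 33.9 and 36.9 in ΔNFκB untreated mice, 49.2 and 42.0 in WT DSS mice and 45.6 and 41.2 in WT untreated mice. Its rise of 0.81 ± 0.13 in ΔNFκB mice (adjusted p 0.00207) was 0.66 with a sex term (adjusted p 0.0651), and its difference of responses, 0.74 ± 0.18 (adjusted p 0.0283), lost the call without WT DSS replicate 2, ΔNFκB untreated replicate 1 or either ΔNFκB DSS mouse (adjusted p 0.0818 to 0.0998).

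Less abundant Galnt genes fell mainly in ΔNFκB DSS mice. Galnt17 had 0.615 and 0.515 CPM in ΔNFκB DSS mice and 10.2 and 13.3 in ΔNFκB untreated mice. In WT DSS mice there were 2.51 and 2.20 CPM, against 8.38 and 7.38 in WT untreated mice. Its fall was 4.35 ± 0.30 in ΔNFκB mice (adjusted p 0.000111) and 1.74 ± 0.25 in WT mice (adjusted p 0.00165), and the responses differed by -2.61 ± 0.40 (adjusted p 0.00894). Galnt15 had 0.615 and 0.927 CPM in ΔNFκB DSS mice, 8.44 and 9.84 in ΔNFκB untreated mice, 3.28 and 6.96 in WT DSS mice and 7.03 and 6.37 in WT untreated mice, and its responses differed by -3.17 ± 0.55 (adjusted p 0.0124). Without ΔNFκB DSS replicate 2 that difference for Galnt15 was -3.50 (adjusted p 0.0535), and without WT DSS replicate 2 it was -2.51 (adjusted p 0.0367). Galnt16 had 0.512 and 0.927 CPM in ΔNFκB DSS mice, 3.86 and 5.04 in ΔNFκB untreated mice, 3.19 and 3.85 in WT DSS mice and 4.23 and 2.75 in WT untreated mice. Its difference of -2.63 ± 0.54 (adjusted p 0.0177) lost the call without WT DSS replicate 2 or either ΔNFκB DSS mouse (adjusted p 0.055 to 0.0662).

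Galnt13, an enzyme of neurons, had 1 read over the 2 ΔNFκB DSS libraries and was 20.3-fold lower than in ΔNFκB untreated mice (95% counting interval 3.33 to 831); its call ended without ΔNFκB untreated replicate 1 or ΔNFκB DSS replicate 2 (adjusted p 0.0662 and 0.0902). Markers of nerve, vessel, fibroblasts and smooth muscle were also lower with DSS in ΔNFκB mice. The 12 enteric neuron and glia markers, none at 0 counts over the 8 libraries, summed to 20.9 and 16.6 CPM in ΔNFκB DSS mice, 72.7 and 58.7 in ΔNFκB untreated mice, 97.0 and 109 in WT DSS mice and 72.2 and 77.9 in WT untreated mice; 8 of the 12 fell with DSS in ΔNFκB mice and 0 in WT mice. The 8 endothelial markers summed to 40.1 and 32.0 CPM in ΔNFκB DSS mice and 115 and 88.8 in ΔNFκB untreated mice. In WT DSS mice there were 115 and 155 CPM, against 115 and 88.0 in WT untreated mice. The 8 fibroblast markers summed to 772 and 630 CPM in ΔNFκB DSS mice, 1960 and 1950 in ΔNFκB untreated mice, 1970 and 2920 in WT DSS mice and 2400 and 1330 in WT untreated mice. Of these 8, 6 fell and 0 rose with DSS in ΔNFκB mice, 3 fell and 2 rose in WT mice, and 7 were lower in ΔNFκB DSS than in WT DSS mice. The 9 smooth muscle markers, all 9 lower with DSS in each genotype, summed to 994 and 980 CPM in ΔNFκB DSS mice, 6120 and 6280 in ΔNFκB untreated mice, 1440 and 1140 in WT DSS mice and 7640 and 3850 in WT untreated mice. Galnt17 also fell in WT mice. There 0 of the 12 neuron and glia, 2 of the 8 endothelial, 3 of the 8 fibroblast and all 9 smooth muscle markers fell. In the same order, 2, 3, 2 and 0 rose. The part of all these cells in the falls of Galnt13, Galnt15, Galnt16 and Galnt17 was not tested. Galnt2 had 0.134 to 1.26 CPM in the 8 libraries, and 90.0% of its exon bases lie in exons of another gene; the part of that overlap was not tested.

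**Figure D2:**
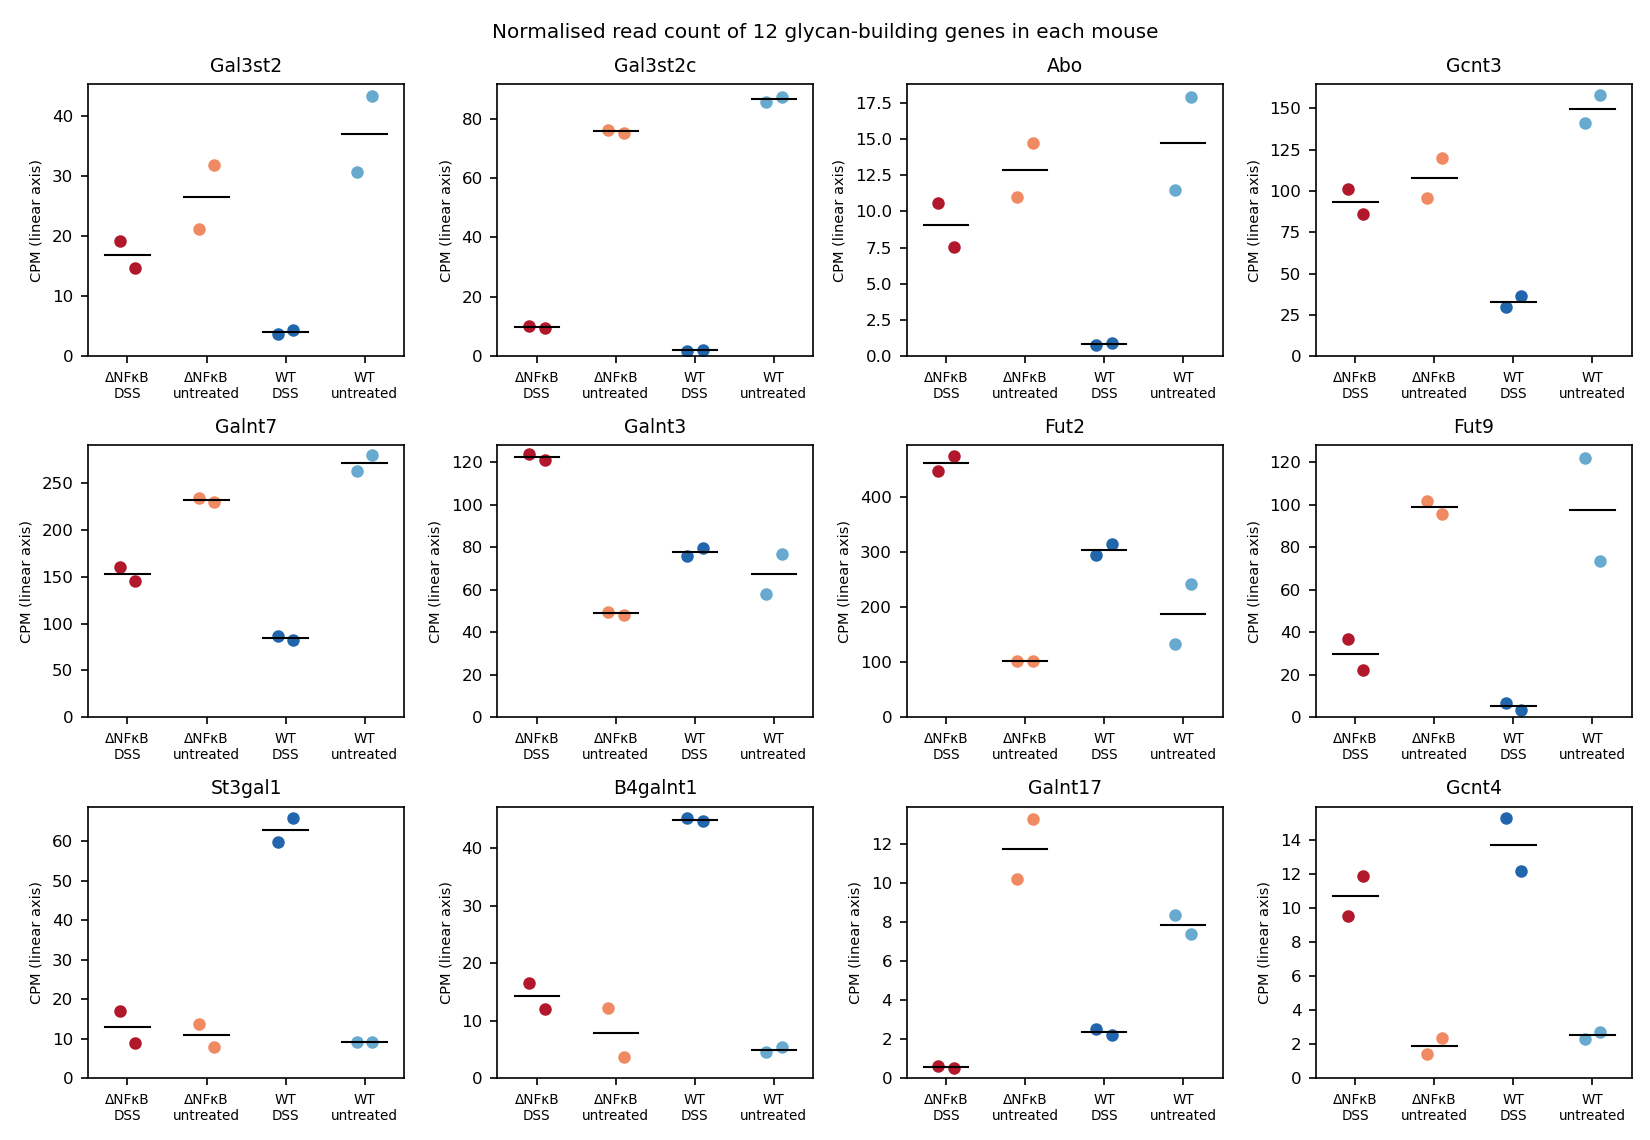
Normalised read count (CPM, linear axis from 0) of 12 members in each mouse, with ΔNFκB DSS, ΔNFκB untreated, WT DSS and WT untreated mice from left to right; points are mice and bars are means of 2. Gal3st2, Gal3st2c, Abo, Gcnt3, Galnt7 and Fut9 are lowest in WT DSS mice, Galnt3 and Fut2 are highest in ΔNFκB DSS mice, St3gal1 and B4galnt1 are highest in WT DSS mice, and Gcnt4 is high in both DSS groups.

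Among the enzymes that form and branch the cores, 5 of 7 members were tested. C1galt1, which makes core 1, the commonest core, was not called in any comparison; it had 345 and 356 CPM in ΔNFκB DSS mice, 281 and 278 in ΔNFκB untreated mice, 265 and 301 in WT DSS mice and 308 and 398 in WT untreated mice. B3gnt6, which makes core 3, had 0.307 and 0.618 CPM in ΔNFκB DSS mice, 0.237 and 0.651 in ΔNFκB untreated mice, 0.579 and 0.549 in WT DSS mice and 0.798 and 0.805 in WT untreated mice, too little for the test. No exon base of B3gnt6 lies in an exon of another gene.

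Gcnt3, the mucin-type branching enzyme that makes core 2 and core 4, separated the genotypes after DSS. It had 101 and 85.8 CPM in ΔNFκB DSS mice and 96.0 and 120 in ΔNFκB untreated mice. In WT DSS mice there were 29.8 and 36.4 CPM, against 141 and 158 in WT untreated mice. The WT DSS values lay below those of the other 6 mice. Gcnt3 fell with DSS in WT mice by 2.17 ± 0.16 (adjusted p 0.000143), its change in ΔNFκB mice was -0.21 ± 0.15 (adjusted p 0.329), and the responses differed by 1.97 ± 0.22 (adjusted p 0.00504).

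Gcnt4, another core 2 enzyme, rose with DSS in both genotypes. It had 9.53 and 11.9 CPM in ΔNFκB DSS mice, 1.42 and 2.36 in ΔNFκB untreated mice, 15.3 and 12.2 in WT DSS mice and 2.32 and 2.75 in WT untreated mice. The rises were 2.50 ± 0.29 in ΔNFκB mice (adjusted p 0.000645) and 2.43 ± 0.28 in WT mice (adjusted p 0.000678), and their difference was 0.07 ± 0.39 (adjusted p 0.918). Gcnt1, the widely expressed core 2 enzyme, had 86.1 and 64.9 CPM in ΔNFκB DSS mice and 123 and 144 in ΔNFκB untreated mice. In WT DSS mice there were 89.7 and 96.1 CPM, against 84.3 and 105 in WT untreated mice. It fell in ΔNFκB mice by 0.82 ± 0.17 (adjusted p 0.00698), but by 0.60 without ΔNFκB DSS replicate 2 (adjusted p 0.0672) and by 0.50 with a sex term (adjusted p 0.214). Gcnt2, which branches poly-N-acetyllactosamine chains to make the I antigen, rose in WT mice by 0.73 ± 0.22 (adjusted p 0.0314). It had 42.8 and 39.5 CPM in ΔNFκB DSS mice, 40.8 and 55.7 in ΔNFκB untreated mice, 77.1 and 79.8 in WT DSS mice and 37.0 and 57.7 in WT untreated mice, and its call ended without WT untreated replicate 1, either WT DSS mouse or ΔNFκB DSS replicate 1 (adjusted p 0.0554 to 0.122).

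Chain extension held the most abundant members. Of its 18 tested members, 2 rose and 3 fell with DSS in ΔNFκB mice, and 1 rose and 4 fell in WT mice. B3galt5, which makes type 1 chains, had 840 and 873 CPM in ΔNFκB DSS mice, 509 and 561 in ΔNFκB untreated mice, 647 and 622 in WT DSS mice and 607 and 1250 in WT untreated mice, and was not called in any comparison. B3gnt7, which extends poly-N-acetyllactosamine, had 563 and 534 CPM in ΔNFκB DSS mice, 611 and 538 in ΔNFκB untreated mice, 397 and 338 in WT DSS mice and 537 and 506 in WT untreated mice. Its fall of 0.50 ± 0.13 in WT mice (adjusted p 0.0205) lost the call without WT untreated replicate 1 or WT DSS replicate 2 (adjusted p 0.0564 and 0.14). B3gnt5, which begins lacto-series glycolipids, had 210 and 182 CPM in ΔNFκB DSS mice, 150 and 188 in ΔNFκB untreated mice, 106 and 80.6 in WT DSS mice and 248 and 262 in WT untreated mice. B3gnt5 fell with DSS in WT mice by 1.45 ± 0.17 (adjusted p 0.000722), and its responses differed by 1.67 ± 0.24 (adjusted p 0.00764). B3gnt3, which extends core 1, had 355 and 385 CPM in ΔNFκB DSS mice and 186 and 257 in ΔNFκB untreated mice, a rise of 0.74 ± 0.17 (adjusted p 0.0103; 0.059 without ΔNFκB DSS replicate 2).

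Per kilobase of exon, a scale on which levels of different genes can be set side by side, B3galt5 or B3gnt7 led in every group. In ΔNFκB DSS mice B3galt5 had 139 ± 3.76 CPM per kb, B3gnt7 133 ± 5.02, B3gnt3 121 ± 7.0 and St3gal4 119 ± 13.9 (SD, n = 2 each). B3galt5 and B3gnt7 overlapped within their SD there, as did B3gnt3 and St3gal4. In ΔNFκB untreated mice B3gnt7 led with 139 ± 12.6, followed by St6galnac6 with 87.2 ± 8.19 and B3galt5 with 86.9 ± 5.96. In WT DSS mice B3galt5 (103 ± 2.85), B3gnt3 (102 ± 5.32) and St6galnac6 (97.5 ± 6.48) could not be told apart. In WT untreated mice B3galt5 had 151 ± 73.7, B3gnt7 126 ± 5.31 and St6galnac6 109 ± 2.75. Of the 82 members, 17 averaged at least 100 CPM in ΔNFκB DSS mice, 16 in ΔNFκB untreated mice, 11 in WT DSS mice and 17 in WT untreated mice, on the scale without division by length.

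The step called fucose and blood group enzymes here holds the Fut genes, Abo and the B4galnt genes, and 11 of its 13 members were tested. Not all of these enzymes add fucose or blood group sugars. Abo, the enzyme that makes blood group A or B antigens and in mice can transfer either sugar, was lowest in WT DSS mice. It had 10.6 and 7.52 CPM in ΔNFκB DSS mice, 11 and 14.7 in ΔNFκB untreated mice, 0.773 and 0.916 in WT DSS mice and 11.5 and 17.9 in WT untreated mice. Abo fell with DSS in WT mice by 4.11 ± 0.36 (adjusted p 0.000232), its change in ΔNFκB mice was -0.51 ± 0.28 (adjusted p 0.192), and the responses differed by 3.60 ± 0.46 (adjusted p 0.00651), the widest positive difference of any member.

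Fut2, which adds the α1,2-linked fucose of the H antigen on which Abo acts, was highest in ΔNFκB DSS mice. It had 448 and 475 CPM in ΔNFκB DSS mice, 103 and 102 in ΔNFκB untreated mice, 295 and 314 in WT DSS mice and 133 and 243 in WT untreated mice. It rose by 2.17 ± 0.25 in ΔNFκB mice (adjusted p 0.000572), and its change of 0.69 ± 0.24 in WT mice did not pass (adjusted p 0.0509). The difference of 1.48 ± 0.34 (adjusted p 0.0244) lost its call when any of 6 libraries was left out, namely each WT DSS, ΔNFκB untreated and ΔNFκB DSS mouse (adjusted p 0.0573 to 0.0939).

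Fut9, which makes the Lewis x structure, had 37.0 and 22.5 CPM in ΔNFκB DSS mice, 102 and 95.7 in ΔNFκB untreated mice, 6.76 and 3.66 in WT DSS mice and 122 and 73.4 in WT untreated mice. It fell in both genotypes, by 1.74 ± 0.32 in ΔNFκB mice (adjusted p 0.00422) and by 4.23 ± 0.37 in WT mice (adjusted p 0.000233); the difference of 2.49 ± 0.48 (adjusted p 0.0153) lost its call without WT DSS replicate 2 or ΔNFκB untreated replicate 1 (adjusted p 0.0604 and 0.0504). Fut8, which adds core fucose to N-glycans, had 187 and 193 CPM in ΔNFκB DSS mice, 106 and 109 in ΔNFκB untreated mice, 123 and 116 in WT DSS mice and 126 and 160 in WT untreated mice. It rose with DSS in ΔNFκB mice by 0.82 ± 0.13 (adjusted p 0.00229), and its responses differed by 1.08 ± 0.18 (adjusted p 0.0113; 0.055 without ΔNFκB DSS replicate 2). B4galnt4, which makes N,N'-diacetyllactosamine, rose in both genotypes, by 3.01 ± 0.40 in ΔNFκB mice (adjusted p 0.00108) and by 1.87 ± 0.38 in WT mice (adjusted p 0.00758), and the first was 2.15 with a sex term (adjusted p 0.0609). B4galnt4 had 8.81 and 5.56 CPM in ΔNFκB DSS mice, 0.868 and 0.895 in ΔNFκB untreated mice, 3.96 and 5.04 in WT DSS mice and 1.6 and 0.872 in WT untreated mice. B4galnt2, the enzyme of the Sda antigen, was not called in any comparison and had 68.6 and 99.8 CPM in ΔNFκB DSS mice, 76.7 and 74.4 in ΔNFκB untreated mice, 85.9 and 67.5 in WT DSS mice and 112 and 71.2 in WT untreated mice.

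B4galnt1, which makes the gangliosides GM2 and GD2, rose with DSS in WT mice. It had 16.5 and 12 CPM in ΔNFκB DSS mice, 12.2 and 3.66 in ΔNFκB untreated mice, 45.2 and 44.7 in WT DSS mice and 4.63 and 5.37 in WT untreated mice, a rise of 3.16 ± 0.45 in WT mice (adjusted p 0.00177). The responses differed by -2.33 ± 0.62 (adjusted p 0.0382), but by -1.22 without ΔNFκB untreated replicate 1 (adjusted p 0.0761) and by -2.96 without ΔNFκB untreated replicate 2 (adjusted p 0.0104), and leaving out any library but that last also ended the call (adjusted p 0.0692 to 0.135). Leukocyte markers were set beside it. The 8 pan-leukocyte genes, none at 0 counts, summed to 380 and 234 CPM in ΔNFκB DSS mice and 307 and 117 in ΔNFκB untreated mice. WT DSS mice had 650 and 394 CPM, against 100 and 202 in WT untreated mice. With DSS, 1 of 8 was called higher in ΔNFκB mice and 5 of 8 in WT mice. Between the DSS groups 1 of 8 was called lower in ΔNFκB mice, and 0 of 8 had a called difference of responses. Of 10 neutrophil markers, 1 was higher and 8 were lower in ΔNFκB DSS than in WT DSS mice. Among their differences of responses, 1 positive and 4 negative were called. Of 10 monocyte and macrophage markers, 0 were higher and 3 lower, with 0 called differences. Of 9 T and NK cell markers 1 was higher and 0 lower, and of 8 B and plasma cell markers 1 was higher and 1 lower. Each of these lists had 1 positive and 0 negative called differences. The part of all these cells in B4galnt1 was not tested.

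Sialylation had 18 of 20 members tested; with DSS, 0 rose and 7 fell in ΔNFκB mice, and 3 rose and 6 fell in WT mice. St3gal1, which caps core 1 with α2,3-linked sialic acid and so ends its growth, was high in WT DSS mice alone among the groups. It had 17.1 and 8.86 CPM in ΔNFκB DSS mice, 13.7 and 8.05 in ΔNFκB untreated mice, 59.8 and 65.9 in WT DSS mice and 9.26 and 9.12 in WT untreated mice. St3gal1 rose with DSS in WT mice by 2.77 ± 0.32 (adjusted p 0.000711), its change in ΔNFκB mice was 0.25 ± 0.32 (adjusted p 0.577), and the responses differed by -2.52 ± 0.45 (adjusted p 0.0129). The leukocyte marker sums given above were also highest in WT DSS mice. Called differences of responses numbered 0 among those 8 markers, and 1 positive and 4 negative among the 10 neutrophil markers. The part of these cells was not tested for St3gal1 either.

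St3gal6 and St3gal4, which sialylate type 2 chains, were lower in WT DSS mice. St3gal6 had 135 and 141 CPM in ΔNFκB DSS mice, 157 and 193 in ΔNFκB untreated mice, 76.1 and 61.2 in WT DSS mice and 209 and 201 in WT untreated mice, with a fall of 1.58 ± 0.15 in WT mice (adjusted p 0.000271) and a difference of responses of 1.23 ± 0.20 (adjusted p 0.0103). St3gal4 varied much more between mice of a group, with 319 and 377 CPM in ΔNFκB DSS mice, 106 and 268 in ΔNFκB untreated mice, 118 and 83.7 in WT DSS mice and 173 and 370 in WT untreated mice. The fall of St3gal4 in WT mice, 1.43 ± 0.46 (adjusted p 0.0417), was 0.75 without WT untreated replicate 2 (adjusted p 0.26) and 0.78 with a sex term (adjusted p 0.242), and the call also ended without any DSS mouse (adjusted p 0.0629 to 0.196). Its difference of responses, 2.32 ± 0.64 (adjusted p 0.0423), was 1.66 without WT untreated replicate 2 (adjusted p 0.113) and 3.12 without ΔNFκB untreated replicate 2 (adjusted p 0.0238), and ended without any DSS mouse or ΔNFκB untreated replicate 1 (adjusted p 0.0778 to 0.139).

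St6gal1, which adds α2,6-linked sialic acid mainly to N-glycans, fell in both genotypes. It had 32.6 and 22.0 CPM in ΔNFκB DSS mice, 69.7 and 79.1 in ΔNFκB untreated mice, 23.5 and 18.9 in WT DSS mice and 108 and 117 in WT untreated mice, with falls of 1.45 ± 0.19 in ΔNFκB mice (adjusted p 0.00105) and 2.41 ± 0.20 in WT mice (adjusted p 0.000175). The difference between those falls, 0.97 ± 0.27 (adjusted p 0.042), lost its call with any library but ΔNFκB DSS replicate 2 left out (adjusted p 0.0525 to 0.139). St6galnac2, which sialylates the GalNAc of core 1, had 12.9 and 9.79 CPM in ΔNFκB DSS mice, 22.6 and 23.6 in ΔNFκB untreated mice, 6.66 and 5.49 in WT DSS mice and 27.8 and 22.1 in WT untreated mice. It fell by 1.02 ± 0.20 in ΔNFκB mice (adjusted p 0.00519) and by 2.04 ± 0.21 in WT mice (adjusted p 0.00038). St6galnac6, the most abundant sialyltransferase per kilobase beside St3gal4, was not called in any comparison and had 468 and 482 CPM in ΔNFκB DSS mice, 392 and 448 in ΔNFκB untreated mice, 492 and 447 in WT DSS mice and 535 and 516 in WT untreated mice. St6galnac1, which makes the sialyl-Tn antigen, had at most 0.206 CPM in any library and could not be tested. Of its 150-base windows 16.8% recur in another gene, and the part of that in its low count was not tested.

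St3gal3 fell in both genotypes and further in ΔNFκB mice. It had 10.7 and 8.04 CPM in ΔNFκB DSS mice, 40.1 and 44.6 in ΔNFκB untreated mice, 20.9 and 20.9 in WT DSS mice and 41.2 and 42.4 in WT untreated mice, with falls of 2.18 ± 0.16 in ΔNFκB mice (adjusted p 0.000124) and 1.0 ± 0.15 in WT mice (adjusted p 0.00193). The responses differed by -1.18 ± 0.21 (adjusted p 0.0132), and lost the call without WT DSS replicate 2 or ΔNFκB DSS replicate 2 (adjusted p 0.05 and 0.058). St3gal5, which makes the ganglioside GM3, had 0.102 and 0.309 CPM in ΔNFκB DSS mice, 2.44 and 1.46 in ΔNFκB untreated mice, 2.61 and 2.29 in WT DSS mice and 0.958 and 1.14 in WT untreated mice. It fell in ΔNFκB mice by 3.19 ± 0.57 (adjusted p 0.00388; -2.94 with a sex term, adjusted p 0.0616), and the difference of responses was -4.39 ± 0.71 (adjusted p 0.00992; -5.33 without ΔNFκB DSS replicate 2, adjusted p 0.0433). St8sia1, which makes the ganglioside GD3, rose in WT mice by 2.22 ± 0.66 (adjusted p 0.0318), to 6.08 and 9.25 CPM in WT DSS mice, against 0.958 and 2.28 in WT untreated mice. Its call ended without WT untreated replicate 1 or any DSS mouse (adjusted p 0.0529 to 0.147), and the rise was 3.02 without WT untreated replicate 2 (adjusted p 0.0472). In ΔNFκB mice St6gal2 was at 0 reads in both DSS libraries, at least 4.94-fold lower than untreated, against a floor of 3 counts over the group. Its call ended without ΔNFκB untreated replicate 1 or ΔNFκB DSS replicate 2 (adjusted p 0.0522 and 0.0512).

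After DSS the genotypes themselves differed in 32 of 71 members, 19 higher and 13 lower in ΔNFκB DSS than in WT DSS mice (45.1%), where 20.0% of all tested genes were called (8.32% higher and 11.7% lower). The members' median was 0.14, beside 0.03 for all tested genes. All 4 mice of this comparison were female by Y-linked transcripts. By step, 6 Galnt members were higher and 4 lower, 1 core enzyme higher and 1 lower, 3 extending enzymes higher and 1 lower, 3 fucose and blood group enzymes higher and 2 lower, 3 sialyltransferases higher and 5 lower, and 3 sulfotransferases higher and 0 lower. The count of called members was lower when either ΔNFκB DSS mouse or WT DSS replicate 2 was left out. Such a fit leaves 1 mouse in a group, and the share of all tested genes called in it was not counted.

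The members with the smallest p among those higher were Gal3st2c, given above, and Gcnt3 (1.49 ± 0.16, adjusted p 0.0025), Abo (3.40 ± 0.37, adjusted p 0.00257), Galnt5 (1.19 ± 0.14, adjusted p 0.00288), Galnt7 (0.85 ± 0.11, adjusted p 0.00318) and Gal3st2b (1.89 ± 0.24, adjusted p 0.00318). Gal3st2 was higher by 2.04 ± 0.29 (adjusted p 0.00422) and St3gal6 by 1.0 ± 0.15 (adjusted p 0.0046). Among those lower, St3gal3 differed by -1.16 ± 0.16 (adjusted p 0.00389), St3gal1 by -2.27 ± 0.32 (adjusted p 0.00412) and St3gal5 by -3.51 ± 0.56 (adjusted p 0.00626; -4.47 without ΔNFκB DSS replicate 2, adjusted p 0.0425). Each of these 11 members kept its call with any library left out. Fut9 was higher by 2.52 ± 0.37 (adjusted p 0.00501) and B3gnt5 by 1.07 ± 0.17 (adjusted p 0.0057), and both kept the call likewise.

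Other genotype differences after DSS rested on fewer libraries. Galnt17 differed by -2.04 ± 0.34 and Galnt15 by -2.72 ± 0.44 (adjusted p 0.00687 and 0.0064), and both lost the call without ΔNFκB DSS replicate 2 (adjusted p 0.0638 and 0.0537); Galnt15 was -2.07 without WT DSS replicate 2 (adjusted p 0.0298). Galnt16, at -2.27 ± 0.42 (adjusted p 0.00971), lost it without WT DSS replicate 2 or either ΔNFκB DSS mouse (adjusted p 0.052 to 0.0608). Galnt3 (0.65 ± 0.14, adjusted p 0.0156), St3gal4 (1.78 ± 0.46, adjusted p 0.0314) and St6galnac2 (0.90 ± 0.21, adjusted p 0.0225) were higher, but each lost the call without any DSS mouse (adjusted p 0.0683 to 0.109, 0.079 to 0.181 and 0.0501 to 0.136). Fut8, higher by 0.67 ± 0.13 (adjusted p 0.0115), lost it without WT DSS replicate 2 or ΔNFκB DSS replicate 2 (adjusted p 0.0891 and 0.0999), and Galnt12, higher by 0.44 ± 0.12 (adjusted p 0.0406), without any DSS or ΔNFκB untreated mouse (adjusted p 0.0603 to 0.227).

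**Figure D3:**
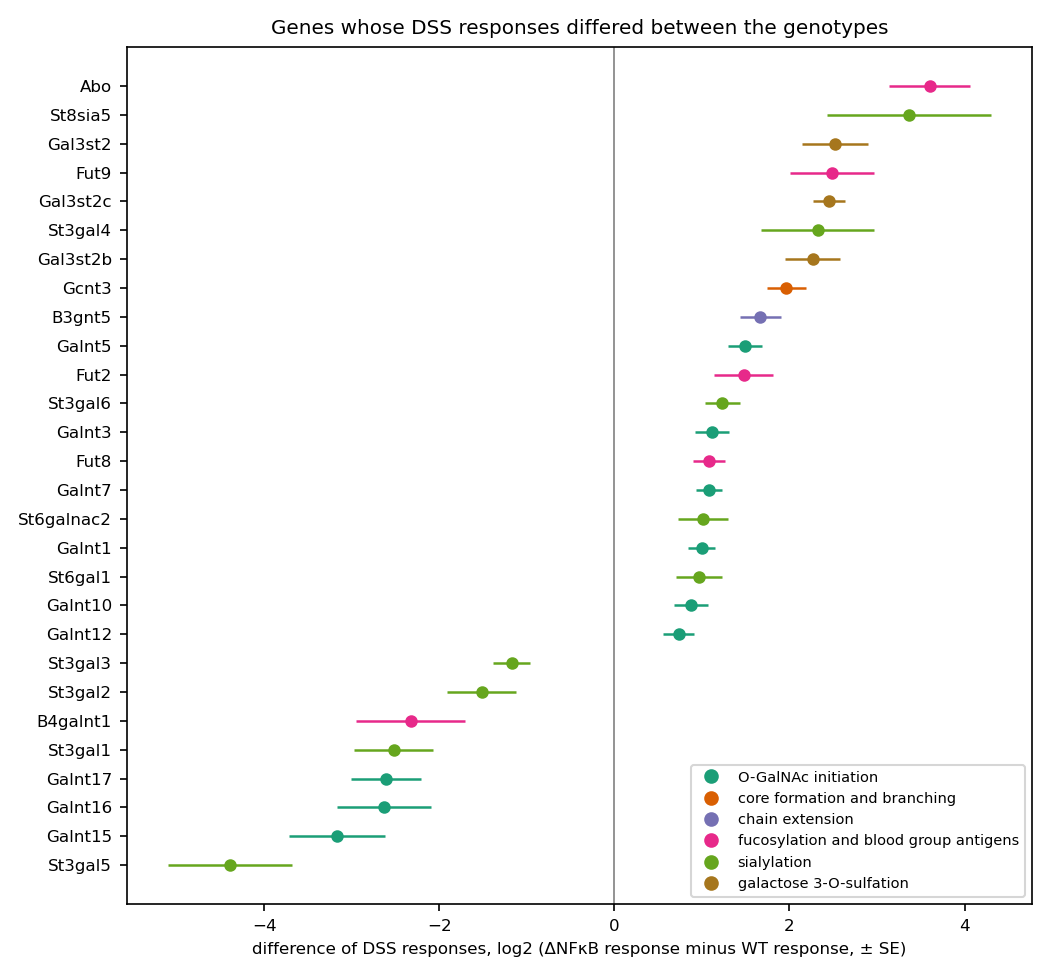
Difference of the DSS responses (x axis, log2, ΔNFκB response minus WT response, ± SE of the edgeR fit) for 28 of the 29 members past the test, coloured by step of the pathway; B3galt1 is left out for its low counts. Abo (3.60) and the 3 Gal3st2 genes (2.27 to 2.52) lie to the right, and St3gal5 (-4.39), Galnt15 (-3.17) and St3gal1 (-2.52) lie to the left.

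Without DSS, 0 of 71 members were called between ΔNFκB and WT mice by edgeR, where 0.388% of all tested genes were called (0.0399% higher and 0.348% lower). At an unadjusted p under 0.05 there were 15 members, and the share of all tested genes at that cut was not counted. DESeq2 called 3, the fit without a count filter 3, the fit with a sex term 4 and the fit without WT untreated replicate 1 4, each lower in ΔNFκB mice. The share of all tested genes called was not counted for these other fits either. The genotypes were confounded with sex in part here, since the ΔNFκB untreated mice were male and the WT untreated mice 1 of each sex.

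Genes that supply and accept these sugars were set beside the members. The 23 genes of nucleotide sugar supply, which make and transport the activated sugars, had 3 rises and 2 falls with DSS in ΔNFκB mice and 1 rise and 12 falls in WT mice. Gmds, the first enzyme of GDP-fucose synthesis, averaged 314 CPM in ΔNFκB DSS mice, 152 in ΔNFκB untreated mice, 177 in WT DSS mice and 206 in WT untreated mice, and rose with DSS in ΔNFκB mice by 1.05 ± 0.12 (adjusted p 0.000597). Gne, the key enzyme of sialic acid synthesis, averaged 284 CPM in ΔNFκB DSS mice, 469 in ΔNFκB untreated mice, 258 in WT DSS mice and 526 in WT untreated mice, and in WT mice fell by 1.03 ± 0.13 (adjusted p 0.00119). The responses differed in 10 of the 23, 9 positive and 1 negative, with Gmds at 1.27 ± 0.17 (adjusted p 0.00699), Uap1 at 1.06 ± 0.17 (adjusted p 0.00923) and Ugp2 at 1.11 ± 0.19 (adjusted p 0.0115).

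Falls outnumbered rises in a list drawn around sulfate transport and the sulfate donor PAPS. Of its 10 tested genes, 1 rose and 4 fell in ΔNFκB mice and 0 rose and 5 fell in WT mice. Among all tested genes 35.4% were called in ΔNFκB mice and 36.0% in WT mice. The list also held Sult1a1, itself a sulfotransferase, and the transporter Slc26a3, and both fell in each genotype. Papss1, which makes PAPS, averaged 70.1 CPM in ΔNFκB DSS mice, 139 in ΔNFκB untreated mice, 54.6 in WT DSS mice and 119 in WT untreated mice, with falls of 0.99 ± 0.10 in ΔNFκB mice (adjusted p 0.000373) and 1.12 ± 0.10 in WT mice (adjusted p 0.000232). Slc26a2, a sulfate transporter, fell by 1.82 ± 0.30 in ΔNFκB mice (adjusted p 0.00258) and by 2.12 ± 0.30 in WT mice (adjusted p 0.0017). Of 11 tested Chst sulfotransferases, which sulfate other sugars, 1 rose and 2 fell in ΔNFκB mice and 2 rose and 1 fell in WT mice. Chst4, which sulfates N-acetylglucosamine on O-glycans, averaged 56.3 CPM in ΔNFκB DSS mice, 40.8 in ΔNFκB untreated mice, 29.0 in WT DSS mice and 71.4 in WT untreated mice, and its responses differed by 1.77 ± 0.38 (adjusted p 0.0207). That was the only positive difference called among the 11 Chst genes. Chst15, Chst11 and Chst12 had negative ones, and the median difference of the list was -1.86. C1galt1c1, the chaperone that C1galt1 needs, fell in WT mice by 0.91 ± 0.17 (adjusted p 0.00563), and its responses differed by 0.96 ± 0.24 (adjusted p 0.0331). Of the 10 tested genes listed with it, 1 other, B3galnt1, had a called difference, and it was negative.

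The mucins are the proteins that carry these glycans. Of 7 tested mucin genes, 2 rose and 2 fell with DSS in ΔNFκB mice and 0 rose and 3 fell in WT mice. Muc3 fell in both genotypes, and its responses did not differ past the test. It had 1480 and 1410 CPM in ΔNFκB DSS mice and 4420 and 4930 in ΔNFκB untreated mice. WT DSS mice had 1260 and 1550 CPM, against 4400 and 5630 in WT untreated mice. The responses differed in 3 of the 7 (Muc2, Muc4 and Muc1), each positive. Muc2, the gel-forming mucin of the colon, averaged 4980 CPM in ΔNFκB DSS mice, 5070 in ΔNFκB untreated mice, 1780 in WT DSS mice and 6980 in WT untreated mice, and its responses differed by 1.95 ± 0.39 (adjusted p 0.0169). Muc4 rose with DSS in ΔNFκB mice by 1.04 ± 0.16 (adjusted p 0.00195) and fell in WT mice by 1.84 ± 0.16 (adjusted p 0.000233), a difference of 2.88 ± 0.23 (adjusted p 0.00218). Muc1 averaged 50.3 CPM in ΔNFκB DSS mice, 6.43 in ΔNFκB untreated mice, 9.24 in WT DSS mice and 8.61 in WT untreated mice, with a difference of responses of 2.87 ± 0.42 (adjusted p 0.00798).

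Goblet cell and epithelial markers, from cells that make these enzymes, were set beside the members. The 16 goblet cell genes, none at 0 counts over the 8 libraries, summed to 6050 and 5270 CPM in ΔNFκB DSS mice, 12200 and 13300 in ΔNFκB untreated mice, 2070 and 2150 in WT DSS mice and 14600 and 19600 in WT untreated mice. Of 15 tested, 4 rose and 7 fell with DSS in ΔNFκB mice, and 1 rose and 12 fell in WT mice; 14 were higher and 0 lower in ΔNFκB DSS than in WT DSS mice. Of the 12 epithelial genes, 2 rose and 0 fell with DSS in ΔNFκB mice, 0 rose and 7 fell in WT mice, and 5 were higher and 0 lower in ΔNFκB DSS than in WT DSS mice. The part of goblet cells and of other epithelial cells in the values of the members was not tested. Summed over the 82 members, CPM was 6260 and 6260 in ΔNFκB DSS mice, 4960 and 5550 in ΔNFκB untreated mice, 4810 and 4590 in WT DSS mice and 5730 and 6890 in WT untreated mice. In ΔNFκB mice the member sum was thus higher with DSS and the goblet cell sum lower, while in WT mice both sums were lower with DSS. The member sum is weighted to abundant members. B3galt5, not called, averaged 856 CPM in ΔNFκB DSS mice and 535 in ΔNFκB untreated mice. By count, 9 members rose and 22 fell with DSS in ΔNFκB mice, and 8 rose and 23 fell in WT mice.

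**Figure D4:**
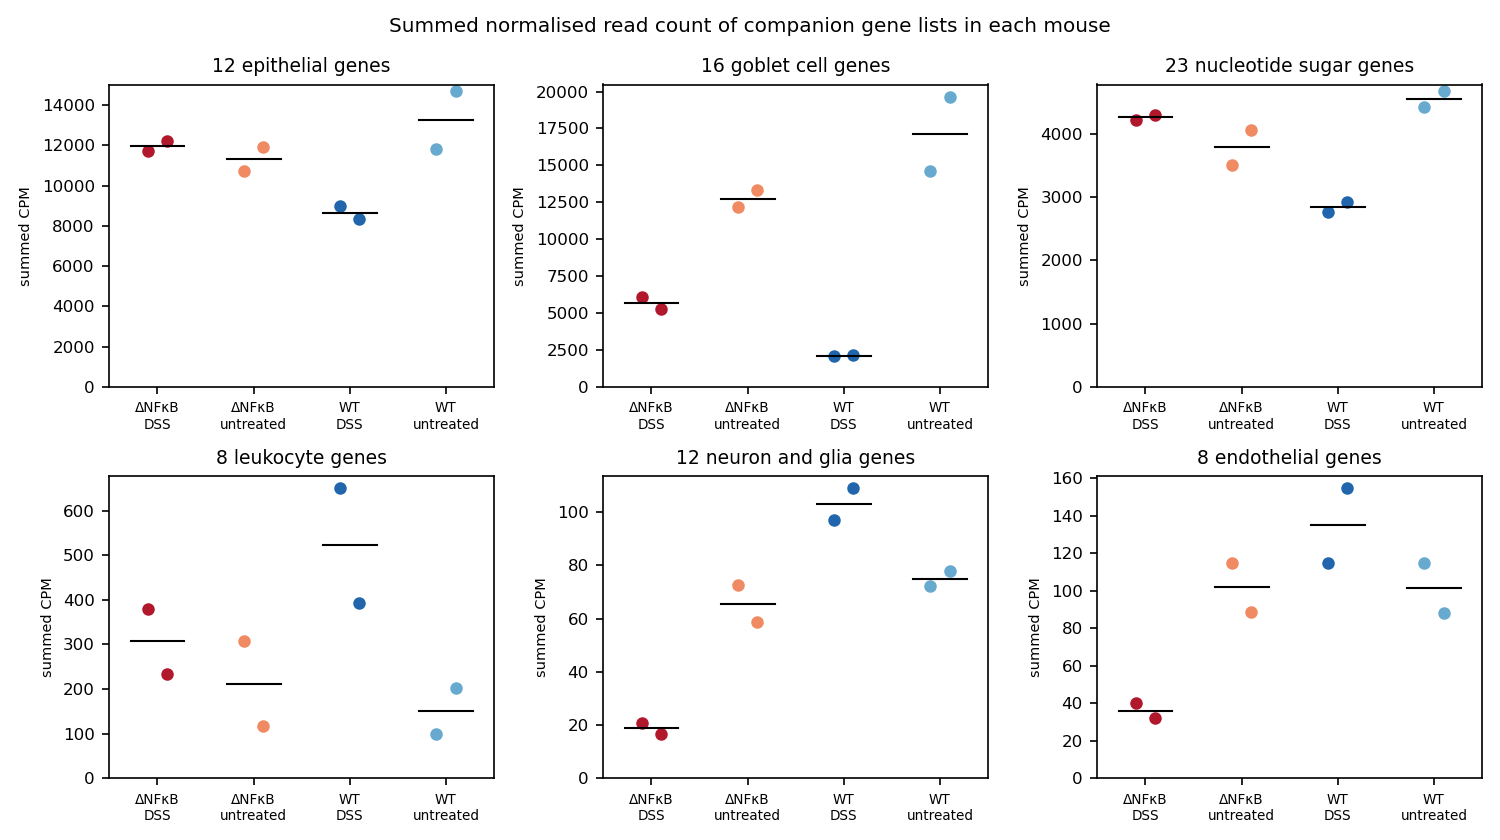
Summed normalised read count (CPM, linear axes from 0) of 6 companion gene lists in each mouse, with ΔNFκB DSS, ΔNFκB untreated, WT DSS and WT untreated mice from left to right; points are mice and bars are means of 2. The goblet cell and nucleotide sugar sums are lowest in WT DSS mice, and the neuron and glia and endothelial sums are lowest in ΔNFκB DSS mice.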

How the data were processed

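Per the labels' protocols, total RNA libraries of 8 distal colons were read as 150 bp pairs. Per the submitters' processing notes, the tools were HISAT2 2.1, SAMtools 1.8, Subread 1.6.2 with featureCounts, and the build was mm10. Annotation release, strand setting and treatment of multiply matching reads: not given in the sources used here. The authors deposited expected counts per gene with no scaling; 18.8% of the values above 0 are fractional (any departure from a whole number), so values were rounded. The test planned for whole counts was kept. Lines that share a symbol were summed, which left 55418 symbols.

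The filterByExpr filter kept 17522 genes, and TMM factors ran from 0.882 to 1.15. The 4 group means were fitted with the quasi-likelihood test of edgeR 4.0.16 in R 4.3.3, with 4 residual degrees of freedom. P-values are two-sided, Benjamini-Hochberg adjusted over the 17522 genes, with 0.05 as the threshold, and measure the spread between these mice. Each SE was obtained from the size of the log2 fold change and the F statistic, as their quotient after taking the root of F. CPM is the count scaled to a common library size with TMM factors. The biological coefficient of variation was 17.1%. With 2 mice a group, the smallest p of an exact permutation test is 0.333, so none is given. The fit was tested on simulated data.

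The members and the gene lists beside them were chosen with earlier results of these data known. Values were to be given for up to 6 called members with the smallest p in each direction of a comparison, where groups do not overlap, for a list of central enzymes, and for the 3 smallest p of each companion list. Values of other members were chosen after they were seen. A fold against 0 counts uses a floor of 3 counts over the group, and where a group has 1 to 3 counts the ratio is printed beside a 95% exact interval; both cover counting error only. Positions and shared exons come from GENCODE M21 on GRCm38. Alternatives were RLE factors, DESeq2 1.42.0, no count filter, a replicate block, a sex term, only the 2 groups compared, and each library left out in turn.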

Additional observations from a re-analysis of the deposited data

Results flagged for a closer look

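In 29 members the DSS response of ΔNFκB mice differed from that of WT mice by the test of the difference itself (edgeR quasi-likelihood, adjusted p under 0.05). These are the results set apart here. Sex is confounded with this difference in part, since untreated ΔNFκB mice were male and untreated WT mice 1 of each sex. With a sex term only the calls of B4galnt1 (-2.23, adjusted p 0.0668) and St6galnac2 (0.84, adjusted p 0.0737) ended. With each library left out in turn, 13 of the 29 kept the call every time: Abo, B3gnt5, Gal3st2, Gal3st2b, Gal3st2c, Galnt1, Galnt5, Galnt7, Galnt17, Gcnt3, St3gal1, St3gal5 and St3gal6. Of these, Galnt17, St3gal1 and St3gal6 kept the call only narrowly, at the edge of the threshold. Differences are log2, ΔNFκB response minus WT response. Among Galnt genes they were 1.0 for Galnt1, 1.11 for Galnt3, 1.49 for Galnt5, 1.08 for Galnt7, 0.87 for Galnt10, 0.74 for Galnt12, -3.17 for Galnt15, -2.63 for Galnt16 and -2.61 for Galnt17. Among core and extending enzymes they were 1.97 for Gcnt3, 1.67 for B3gnt5 and -3.87 for B3galt1, a gene with 1 read over the 2 ΔNFκB DSS libraries. Among Fut, Abo and B4galnt genes they were 3.60 for Abo, 1.48 for Fut2, 1.08 for Fut8, 2.49 for Fut9 and -2.33 for B4galnt1. Among sialyltransferases they were -2.52 for St3gal1, -1.52 for St3gal2, -1.18 for St3gal3, 2.32 for St3gal4, -4.39 for St3gal5, 1.23 for St3gal6, 0.97 for St6gal1, 1.01 for St6galnac2 and 3.37 for St8sia5. Among sulfotransferases they were 2.52 for Gal3st2, 2.27 for Gal3st2b and 2.45 for Gal3st2c.

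Some of these calls rested on nearly every library. The B3galt1 call ended with 7 libraries left out in turn (adjusted p 0.0589 to 0.162), and its value was -6.43 without ΔNFκB DSS replicate 1 and -3.02 without ΔNFκB DSS replicate 2. It also ended with the replicate block (adjusted p 0.0552) and the crossed block (adjusted p 0.0559). The St8sia5 call ended with 6 libraries (adjusted p 0.0677 to 0.137) and with the replicate block (adjusted p 0.0516). Its value was 2.37 without WT untreated replicate 2, 4.33 without ΔNFκB untreated replicate 2 (adjusted p 0.039), 4.01 without WT DSS replicate 1 and 2.78 without ΔNFκB untreated replicate 1. The St6galnac2 call ended with 7 libraries (adjusted p 0.0645 to 0.136), with DESeq2 (adjusted p 0.056), with the sex term (adjusted p 0.0737) and with the crossed block (adjusted p 0.0538). The St3gal2 call ended with 6 libraries (adjusted p 0.0621 to 0.13) and the Galnt10 call with 5 (adjusted p 0.0568 to 0.078).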

How the results depend on the processing

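With 2 mice per group, the counts moved most when a library was left out. Between untreated genotypes the count of called members was 0, but 3 without a count filter, 4 with a sex term and 3 with DESeq2, and 0 to 4 with each library left out; the cause was not tested. After DSS it was 32, and 14 to 37 with a library left out; for the difference of responses it was 29, and 15 to 29. The DSS counts, 31 in each genotype, had ranges of 21 to 34 (ΔNFκB mice) and 23 to 32 (WT mice), and the sex term gave 22 in ΔNFκB mice and 30 in WT mice. Of 123 called values, 70 kept the call with every library left out and 53 lost it with at least 1, and 0 of 1810 alternative values changed sign. The call was lost by 17 of 123 values with a sex term and by 8 of 122 with DESeq2. The sex term rests on the WT untreated mice alone, 1 of each sex, so it cannot separate sex from DSS in ΔNFκB mice. Replicate numbers did not pair the mice (correlations of deviations -0.126 to 0.244). With the replicate block the counts were 33 in ΔNFκB mice with DSS, 30 in WT mice with DSS, 0 between untreated genotypes, 31 after DSS and 28 for the difference of responses; a crossed pairing, chosen after seeing the data, gave 31, 32, 0, 33 and 26 in the same order. Where a group was left with 1 mouse, it was assumed to vary like the other groups. The share of all tested genes called was not counted in these alternative fits, so their counts are for members only. The count filter left 11 members untested at this depth.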
